A study of Mus musculus with 2 samples.

Results

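The Hist1h genes are the large cluster of replication-dependent histone genes of the mouse, on chromosome 13. Members were the protein-coding genes of GENCODE M21 whose names begin with Hist1h, which gave 54 of 21938 protein-coding genes on the assembled chromosomes. They encode 6 linker histones H1 and the core histones H2A (13 genes), H2B (15), H3 (9) and H4 (11), and 2 pseudogenes with Hist1h names were left out. The cluster was examined in a map of CTCF, the zinc finger protein that anchors chromatin loops, made by chromatin immunoprecipitation and sequencing (ChIP-seq) of whole heart from newborn B6NCrl mice at postnatal day 0. The data are 2 libraries of 1 group, named replicate 1 and replicate 2, with no treatment and no second condition. Both libraries carry the same labels for tissue sample and donor, and differences between them may therefore be technical. Sex was not collected. Whole heart holds cells of many types, and a peak list from it does not say in which of them a site is bound.

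Replication-dependent histone genes supply the histones that package new DNA, and their transcripts accumulate in S phase. Their mRNAs are unusual in ending in a stem-loop instead of a poly(A) tail, and most of the genes have no introns. In the nucleus such genes gather at the histone locus body, organised around the protein NPAT. Many H2A and H2B genes stand head to head and share a short divergent promoter. CTCF binds a well-known sequence core, and loops tend to form between cores that point toward each other. Most heart muscle cells leave the cell cycle within days to weeks after birth.

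The authors' optimal list, filtered by the irreproducible discovery rate (IDR), held 44533 peaks. The conservative list, also filtered by IDR, held 43221. A peak of the optimal list is not taken here to have passed IDR between the libraries. A relaxed list of 300000 peaks, which includes background, was deposited for the pooled reads and for each replicate. Peak signal is the deposited value of each peak, without a stated scale, and pooled and replicate values are on different scales. Depth cannot be read from peak lists, and no counting error on a signal can be given. The summit is the highest position of a peak, and distances to a gene are negative when the summit lies upstream of its 5' end. With 1 group there is no contrast, so shares of Hist1h genes are set beside the same share over all protein-coding genes, without a test.

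The genes fall into 3 runs wherever neighbouring 5' ends lie more than 200 kb apart. Run 1 holds 18 genes over 121.8 kb, from Hist1h2bl to Hist1h2br (chr13:21715763-21837530, mm10). Run 2 holds 5 genes over 8.5 kb, from Hist1h2ah to Hist1h2bj (chr13:22035164-22043676). Run 3 holds 31 genes over 403.8 kb, from Hist1h4h to Hist1h2aa (chr13:23531050-23934851). Runs 1 and 2 are 197.6 kb apart, and runs 2 and 3 are 1487 kb apart.

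The sites at and around the runs are shown first, because the map rests on where their CTCF cores lie and how these point. The 14-base core was searched on both strands within 50 bp of each summit, with at most 2 mismatches. Each line gives 40 bases of mm10 in the direction of the core, with the core in capitals and 13 bases on either side in lower case.
Outside Hist1h2bl, chr13:21714899-21714938, plus strand: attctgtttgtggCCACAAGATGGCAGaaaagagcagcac
Upstream of Hist1h4j, chr13:21734266-21734305, minus strand: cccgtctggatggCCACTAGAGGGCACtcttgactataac
Beyond Hist1h2bj, chr13:22051107-22051146, minus strand: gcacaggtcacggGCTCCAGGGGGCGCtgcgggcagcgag
Upstream of Hist1h4h, chr13:23524801-23524840, minus strand: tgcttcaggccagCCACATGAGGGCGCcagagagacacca
At the Hist1h4f 5' end, chr13:23551662-23551701, minus strand: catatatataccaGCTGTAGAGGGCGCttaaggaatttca
In the Hist1h2be intron, chr13:23598160-23598199, minus strand: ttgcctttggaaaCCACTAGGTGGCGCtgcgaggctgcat
Past the Hist1h4c 3' end, chr13:23697548-23697587, minus strand: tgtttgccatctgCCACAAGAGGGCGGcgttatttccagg
Upstream of Hist1h4c, chr13:23701367-23701406, plus strand: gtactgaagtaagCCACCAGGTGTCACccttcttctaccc
Upstream of Hist1h1c, chr13:23732653-23732692, minus strand: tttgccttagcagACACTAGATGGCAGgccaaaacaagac
Beyond Hist1h1a, chr13:23792663-23792702, plus strand: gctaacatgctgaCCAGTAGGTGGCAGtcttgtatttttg

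CTCF peaks were at few Hist1h 5' ends. An optimal summit lay within 1 kb of the 5' end of 4 of 54 genes, or 7.41% (95% exact binomial interval 2.06 to 17.9%), against 21.2% of all protein-coding genes. The 4 were the H4 genes Hist1h4j, Hist1h4f and Hist1h4c and the H3 gene Hist1h3e. By class this was 3 of 11 H4 genes and 1 of 9 H3 genes, and 0 of 6 H1, 0 of 13 H2A and 0 of 15 H2B genes. Neighbouring genes share sites, so the intervals on shares of genes cover counting error only and treat genes as if they were independent.

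At Hist1h4j, which encodes H4, the summit lay 772 bp upstream of the 5' end, at 21734292, with a pooled signal of 167. The replicates gave 94.7 and 71.4 (83.0 ± 16.5, SD, n = 2), and the core upstream of Hist1h4j matched with 0 mismatches. At the H4 gene Hist1h4c the summit lay at 23697561 with a signal of 139, and replicates of 75.1 and 63.1 (69.1 ± 8.45). This summit is 893 bp downstream of the 5' end and past the far end of the gene record (23697635 to 23698454), so it is not at the promoter itself.

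At Hist1h4f, also an H4 gene, the summit at 23551687 lay 39 bp upstream of the 5' end and was the only optimal summit within any of the 49 Hist1h promoters that matched RefSeq. Its signal was 79.4, and the replicates gave 36.2 and 39.4 (37.8 ± 2.21). At Hist1h3e, which encodes H3, the summit at 23563326 was 957 bp upstream, close to the limit of the window. Its signal of 51.0 was below the median of the optimal list, 60.8, and the replicates gave 25.3 and 25.2 (25.2 ± 0.124), with no core at 2 mismatches or fewer. All 4 sites were peaks in both libraries, and in each library the Hist1h4j and Hist1h4c sites were higher than the Hist1h4f and Hist1h3e sites.

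The share within 10 kb lay above or below that of all genes depending on the window. An optimal summit lay within 10 kb of 25 of 54 Hist1h 5' ends, or 46.3% (32.6 to 60.4%), against 50.3% of all protein-coding genes. Among protein-coding genes with a protein-coding neighbour within 10 kb, the share was 60.8%. At 5 kb the share was 24.1% of Hist1h genes against 38% of all protein-coding genes, and at 20 kb it was 81.5% against 66.1%. The 25 genes share 11 nearest summits, and 10 of the genes had more than 1 summit in reach. The median distance to the nearest summit was 10.96 kb for Hist1h genes and 9.85 kb for all protein-coding genes. By class, 5 of 6 H1, 5 of 13 H2A, 7 of 15 H2B, 3 of 9 H3 and 5 of 11 H4 genes had a summit within 10 kb. At the limit, Hist1h1a, which encodes a linker histone, was just inside at 9999 bp, and Hist1h3g, which encodes H3, was just outside at 10596 bp.

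**Figure D1:**
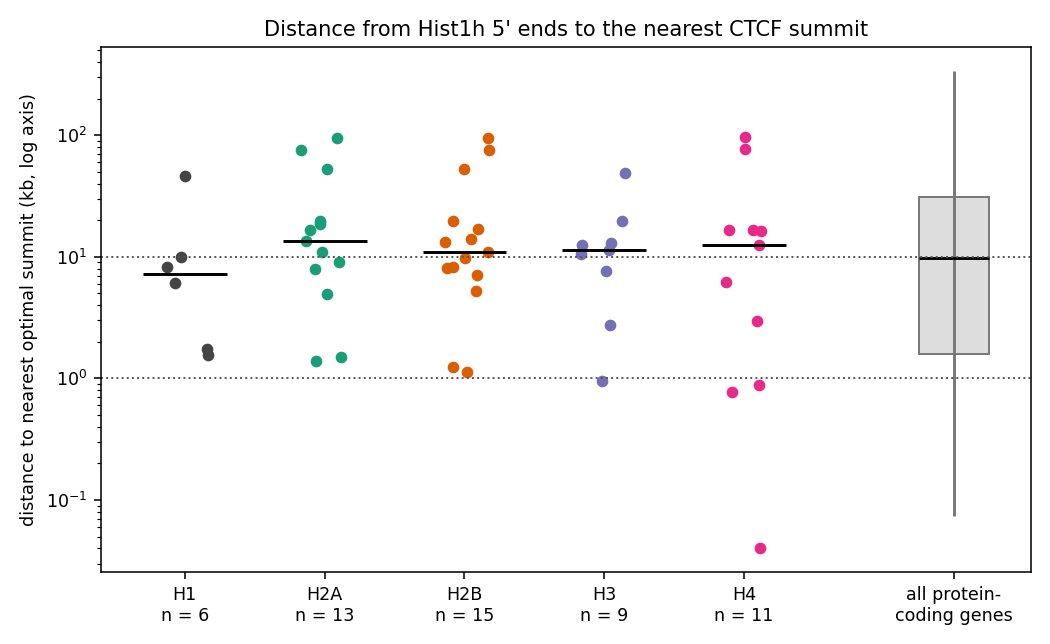
Distance in kb (log axis) from each Hist1h 5' end to the nearest optimal summit, by histone class, with each gene as a point and the class median as a line; for all protein-coding genes the box spans the quartiles, its line is the median and the whisker runs from the 5th to the 95th percentile. The points under the dotted line at 1 kb are 3 H4 genes and 1 H3 gene, and the class medians lie on either side of the dotted line at 10 kb, with H1 lowest at 7.21 kb.

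The 3 runs differed in how near CTCF came. All 5 genes of run 2 had a summit within 10 kb, with a median distance of 2.97 kb. In run 3 this held for 15 of 31 genes (48.4%, median 10.6 kb), against 50.3% of all protein-coding genes. In run 1 it held for 5 of 18 (27.8%, median 47.7 kb). Those 18 include the 6 genes in repeated sequence described below, of which 0 had a summit within 10 kb. Differences among runs were not tested, since genes of a run share sites.

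In run 1 the optimal sites were at and near the left end. Hist1h2bl, an H2B gene and the outermost of the run, had a summit at 21714917, 1.23 kb outside it, with a signal of 156 and replicates of 81.4 and 75.6 (78.5 ± 4.10). A further summit at 21710097, 6.05 kb outside, had a signal of 182 and replicates of 104 and 77.5 (90.8 ± 18.8). Both have a core on the plus strand, and the core at Hist1h4j, to their right, is on the minus strand, so that the 5' ends of Hist1h2bl, Hist1h2ai, Hist1h3h and Hist1h2bm lie between cores that point toward each other. From the Hist1h4j site the next optimal summit was 194.5 kb away, at 21928772, and 14 Hist1h 5' ends lie in that stretch. The outermost gene at this end, the H2B gene Hist1h2br, was 95.03 kb from that summit, whose signal was 93.1.

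Part of run 1 consists of near-identical copies, and a read that matches more than 1 copy equally well cannot be placed at 1 position. Of all 31-base windows in the 194.5 kb stretch, 33.3% occurred more than once in mm10, against 10.9% over run 3. Around the 5' ends of 6 genes, Hist1h2bq, Hist1h2ao, Hist1h4m, Hist1h4n, Hist1h2ap and Hist1h2br, the share of such windows was 95.9 to 100%. None of these 6 had an optimal summit within 10 kb or a relaxed peak within 1 kb, and their nearest summits were 75.9 to 96.6 kb away. Among the other 48 Hist1h genes, the share with a summit within 1 kb was 8.33%, against 21.2% of all protein-coding genes, and within 10 kb it was 52.1%, against 50.3%, with the share of all genes not filtered for repeats. How reads with several positions were treated is not given in the sources used here, and the part of repeated sequence in the lack of peaks was not tested. Weak signal was uneven along the stretch. Its 5 bins of 10 kb in which 50% or more of the windows were repeated, which hold the 6 genes, had 0 relaxed peaks, and the other 14 whole bins had 19, or 136 per Mb, against 114 per Mb over chromosome 13.

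Run 2 lay between CTCF sites on both sides, with none inside its 8.5 kb. On its left, in an intron of the gene record Gm11292, was the site with the highest pooled signal of the region, at 22028857, with a signal of 219 and replicates of 105 and 114 (109 ± 6.00). It ranked first in pooled and replicate 2 signal, while in replicate 1 the site upstream of Abt1 was higher, at 125. The site lay 6.71 kb from the 5' end of Hist1h2ah, an H2A gene, and its best match to the core had 4 mismatches. A weaker site at 22030659, 4.91 kb from Hist1h2ah, had a signal of 31.01, with 20.2 in replicate 1 and 9.94 in replicate 2. On the right, 1.12 kb from the 5' end of Hist1h2bj, an H2B gene, a summit at 22044332 had a signal of 76.7 and replicates of 34.3 and 40.3. Beyond it, 7.92 kb from Hist1h2bj, the summit at 22051129 had a signal of 129, with replicates of 63.9 and 64.8 (64.3 ± 0.582). The H4 gene Hist1h4i and the H2A gene Hist1h2ag, inside the run, were 2.97 and 1.39 kb from the 22044332 summit.

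Run 3 held 12 optimal summits, most of them outside gene records, including those within 1 kb of the 5' ends of Hist1h4f, Hist1h3e and Hist1h4c. Left of the run, 6.22 kb upstream of the H4 gene Hist1h4h, a summit at 23524826 had a signal of 154, with replicates of 95.3 and 58.8 (77.1 ± 25.8). The log2 ratio of replicate 2 to replicate 1 there was -0.70, beside a median of -0.36 and a range of -1.53 to 1.19 over the region's sites. Inside, the summit at 23598171 had a signal of 148 and replicates of 75.2 and 72.4 (73.8 ± 2.02). It lies in an intron of Hist1h2be, an H2B gene with a long record (23583670 to 23621124) that overlaps that of Hist1h1e, and it is 16.57 kb from its nearest protein-coding 5' end, that of the H4 gene Hist1h4d. The summit at 23630837, 8.28 kb upstream of the linker histone gene Hist1h1e, had a signal of 59.9 and replicates of 28.9 and 32.2, with no core.

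The site with the highest pooled signal inside any run lay 2.93 kb upstream of Hist1h4c, at 23701383. Its signal was 200, with replicates of 94.9 and 105 (99.8 ± 6.88). In replicate 1 the sites at 23792681 (104) and 23732675 (97.6) were higher. With the site past the 3' end of the gene, 3.82 kb away, it brackets Hist1h4c, and the cores of the 2 sites point away from each other. The testis-specific linker histone gene Hist1h1t, next to it, was 1.75 kb from the nearer of these sites. The linker histone gene Hist1h1c had a site 6.13 kb upstream, at 23732675, with a signal of 164 and replicates of 97.6 and 68.6 (83.1 ± 20.5). Towards the right of the run, the protein-coding 5' ends nearest to the sites were those of other genes. A weak site in an intron of Trim38 (signal 13.4) is also the nearest to Hist1h1a. Another, of signal 178 at 23792681, lies between genes, and 3 lie in or near the Slc17a transporter genes (18.0 to 103). Hist1h2ba and Hist1h2aa, the H2B and H2A genes of testis at the right end, were 16.96 and 16.66 kb from a summit at 23951120, with a signal of 44.9.

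**Figure D2:**
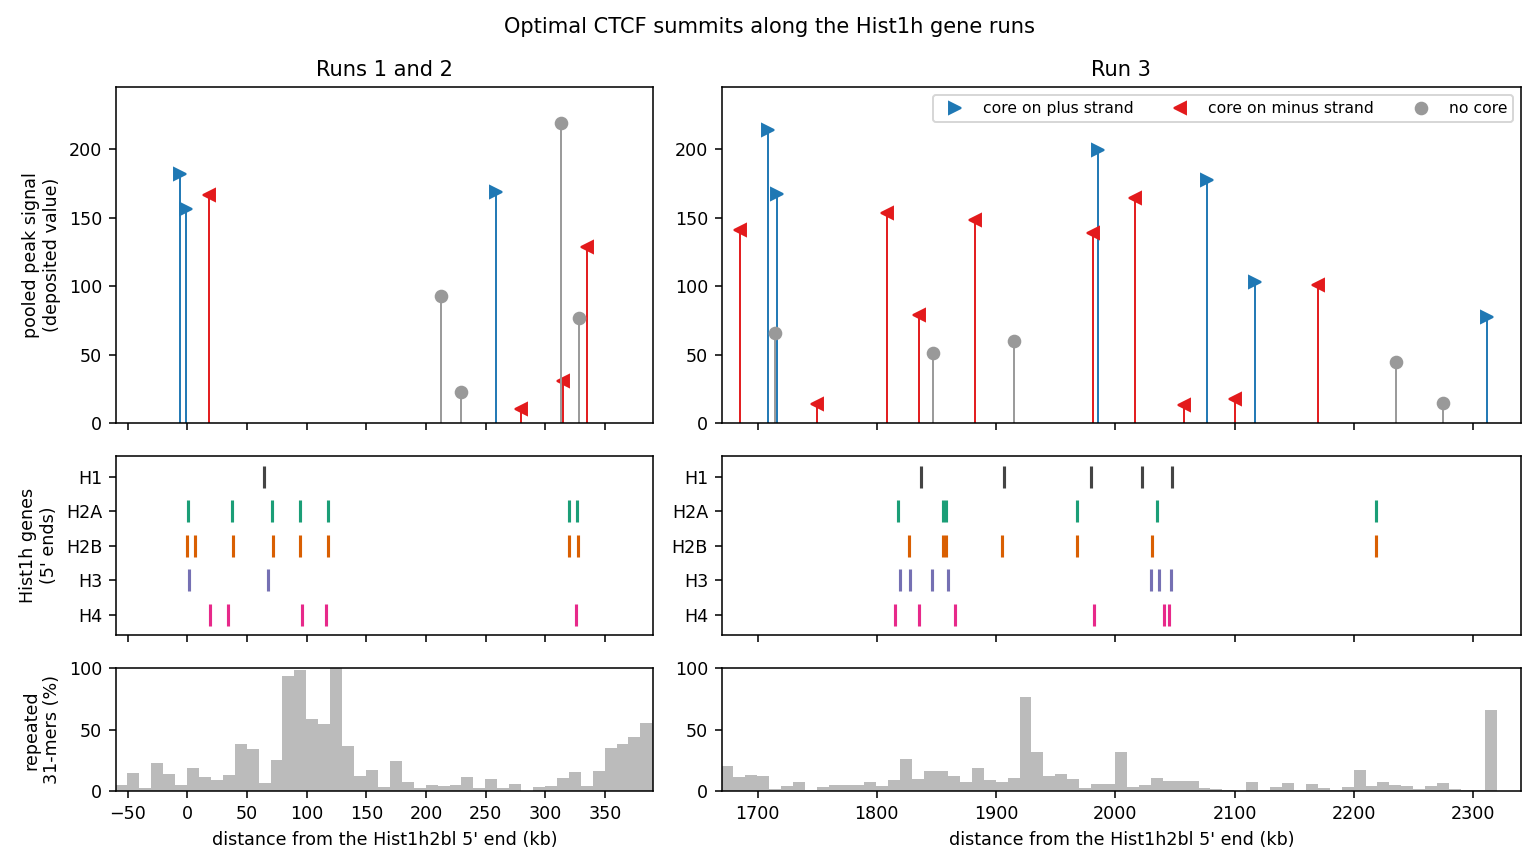
Pooled signal of optimal summits (top, linear axis), Hist1h 5' ends by class (middle) and the share of 31-base windows found more than once in mm10, in 10 kb bins (bottom), against distance in kb from the Hist1h2bl 5' end; triangles give the strand of the core, circles have none at 2 mismatches or fewer, and most of the interval between runs 2 and 3 is left out. The stretch of 194.5 kb with 14 gene 5' ends and no summit includes 5 bins with 54.4 to 100% repeated windows, and the strongest summits at the left end of run 1 and on either side of run 2 have signals of 129 to 219.

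Sites were also counted at the 11 head-to-head H2A and H2B pairs. Their 5' ends were 176 to 306 bp apart (median 268 bp), and 0 of 11 pairs had an optimal summit within 1 kb of either gene, against 30.2% of 733 head-to-head protein-coding pairs with 5' ends at most 1 kb apart. In 4 of 11 a summit lay within 10 kb of both genes, against 57.8% of those pairs: Hist1h2bl with Hist1h2ai, Hist1h2ah with Hist1h2bk, Hist1h2ag with Hist1h2bj, and Hist1h2ae with Hist1h2bg. Of the 11, the Hist1h2ag and Hist1h2bj pair was nearest to a site, the one of signal 76.7 described above. The 11 include Hist1h2bq with Hist1h2ao and Hist1h2ap with Hist1h2br. Around the 5' ends of these genes 100% of the 31-base windows were repeated, and no relaxed peak lay within 1 kb. The part of repeats in the pair counts was not tested.

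The whole region, from 100 kb before the first Hist1h gene to 100 kb after the last (chr13:21615763-24034851, 2419 kb), held 37 optimal summits. This is 15.3 per Mb, or 1.04 times the density of chromosome 13 and 0.936 times that of all assembled chromosomes. The density was uneven. Run 2 with 100 kb on each side had 2.27 times and run 3 with its flanks 2.02 times the chromosome 13 density, while run 1 with its flanks had 0.842 times. The 1487 kb between runs 2 and 3 had 0.592 times, and its longest gap without a summit was 462.9 kb. This interval holds mostly Vmn1r genes, which encode vomeronasal receptors of the olfactory system, and 1 of the 36 had a summit within 10 kb, against 50.3% of all protein-coding genes. Repeated sequence is common here too: 36.6% of its 31-base windows occurred more than once, and the 46 of 148 bins with 50% or more had 4 relaxed peaks, or 8.70 per Mb, against 86.3 per Mb in its other bins. The part of repeats in the low density was not tested. The 18 other protein-coding genes of the region that are neither Hist1h nor Vmn1r had a summit within 10 kb in 9 cases (50%), beside 25 of 54 Hist1h genes (46.3%). The median gap between neighbouring summits was 30.16 kb in the region and 27.83 kb on chromosome 13.

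Many of the sites near Hist1h genes were strong. The 15 summits within 10 kb of a Hist1h 5' end had a median signal of 139 (13.4 to 219), and 9 of them reached 100, a line chosen after the values were seen. The 14164 optimal summits within 10 kb of any protein-coding 5' end had a median of 57.7, and the 22 other summits of the region had 55.3. The shares that reached 100 were 60% of the 15, 33.3% of the 14164 and 36.4% of the 22. Over all 37 sites the median was 79.4, against 60.8 for the optimal list, and 17 (45.9%) reached 100, against 34.1% of the list. The strong sites outside the runs included one 771 bp upstream of Abt1, which encodes an activator of basal transcription, with a signal of 214 and replicates of 125 and 91.1, and another 8.83 kb upstream of it with a signal of 167.

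Of the 37 sites, 36 had a relaxed summit of replicate 1 within 100 bp and all 37 had one of replicate 2, and 33 were in the conservative list. The site without a replicate 1 summit within 100 bp was at the promoter of Zfp184, a zinc finger gene between runs 1 and 2. It had a pooled signal of 23.1 and a replicate 2 signal of 13.1. This site is in the conservative list, and a replicate 1 peak with its summit farther away was not looked for. The log2 ratio of replicate 2 to replicate 1 signal had a median of -0.36 over 36 sites, with a range of -1.53 to 1.19, and replicate 2 was lower at 28 of them. The SD between the 2 libraries ran from 0.124 to 25.8 across these sites and includes any difference in scale between the libraries.

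**Figure D3:**
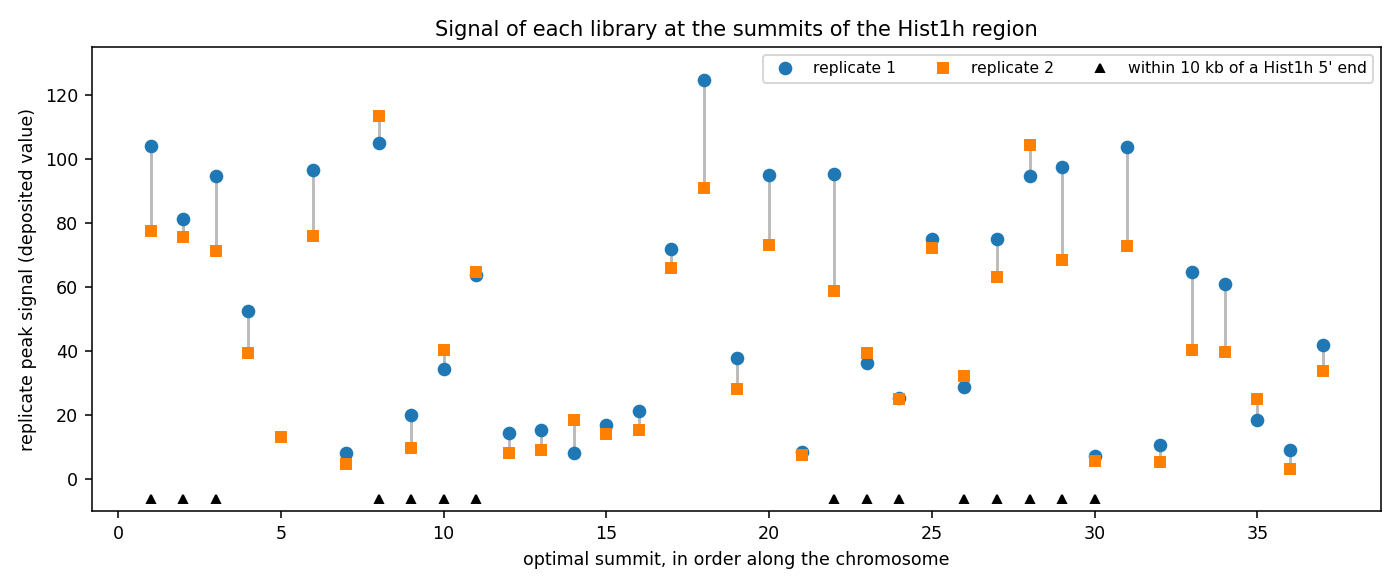
Deposited peak signal of replicate 1 (circles) and replicate 2 (squares) at the 37 optimal summits of the Hist1h region in order along the chromosome. A line joins them where both libraries have a relaxed summit within 100 bp. Black triangles mark the 15 summits within 10 kb of a Hist1h 5' end. Replicate 2 is the lower at 28 of 36 sites, and the site at the Zfp184 promoter has no replicate 1 summit within 100 bp.

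The share of sites with a core was slightly lower in the region than in the whole list at each limit tried, without a test. At 2 mismatches or fewer, 26 of 37 sites (70.3%, 53 to 84.1%) had a core, against 73.5% of all optimal peaks and 2.79 and 2.94% of windows 1 kb to the left and right of the peaks. At 1 mismatch or fewer it was 35.1% against 42.4%, and at 3 or fewer 86.5% against 91.3%. Region sites with a core had a median signal of 134 and those without had 51.0. Over the whole optimal list these medians were 78.7 and 31.3, so the same order held there. Of the 26 cores, 11 were on the plus strand and 15 on the minus strand. Among 25 neighbouring pairs of sites with a core, 7 pointed toward each other, 7 away from each other and 11 the same way. From the site upstream of Hist1h4h to the site past the Hist1h4c 3' end, all 4 cores shown above were on the minus strand, and the next, upstream of Hist1h4c, was on the plus strand. No contact data were used here, so nothing is measured of loops between these sites.

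Weak peaks were spread over more of the genes. A peak of the pooled relaxed list lay within 1 kb of 27 of 54 Hist1h 5' ends, or 50% (36.1 to 63.9%), against 58.2% of all protein-coding genes. These were all 6 H1 genes, 4 of 13 H2A, 6 of 15 H2B, 5 of 9 H3 and 6 of 11 H4 genes. Repeated windows moved with this order in part: the median share of 31-base windows found elsewhere was 1.19% for H1 genes, 33.9% for H2A and 33.6% for H2B genes, and its part in the counts was not tested. Apart from the 4 genes with an optimal summit, the strongest relaxed peaks of the other 23 had a median signal of 7.01 (5.30 to 16.6). For all protein-coding genes without an optimal summit within 1 kb, this median was 8.04. Of the 23 Hist1h genes, 5 had the peak matched by a summit within 100 bp in both libraries, 15 in 1 and 3 in neither. These are counts of genes and not of separate peaks. A single peak was shared by Hist1h2ak and Hist1h2bn, by Hist1h2ah and Hist1h2bk, and by Hist1h2ad and Hist1h3d. The same held for Hist1h2ac and Hist1h2bc, and for Hist1h3a and Hist1h1a.

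Among linker histone genes, Hist1h1c had the strongest relaxed peak, 86 bp downstream of its 5' end, with a signal of 16.6 and replicates of 9.81 and 7.46. It is the only Hist1h gene that the conservative list adds within 1 kb, which makes 5 of 54 there. Hist1h1a had 8.73 (3.57 in replicate 1 and 3.83 in replicate 2), and Hist1h1e had 7.89 (3.98 and 3.90). Hist1h1t had 7.46 with a matched peak in replicate 2 only (6.11), while Hist1h1d (7.01) and Hist1h1b (6.19) had a matched peak in neither library. Apart from Hist1h1c, all of these are below 9 and far under the optimal sites at H4 genes. The strongest at other classes were Hist1h2bg, an H2B gene, at 10.1 (3.10 and 6.48), and the H4 gene Hist1h4a at 9.30, with a matched peak in replicate 1 only (2.99). The H3 gene Hist1h3a shares its peak with Hist1h1a.

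**Figure D4:**
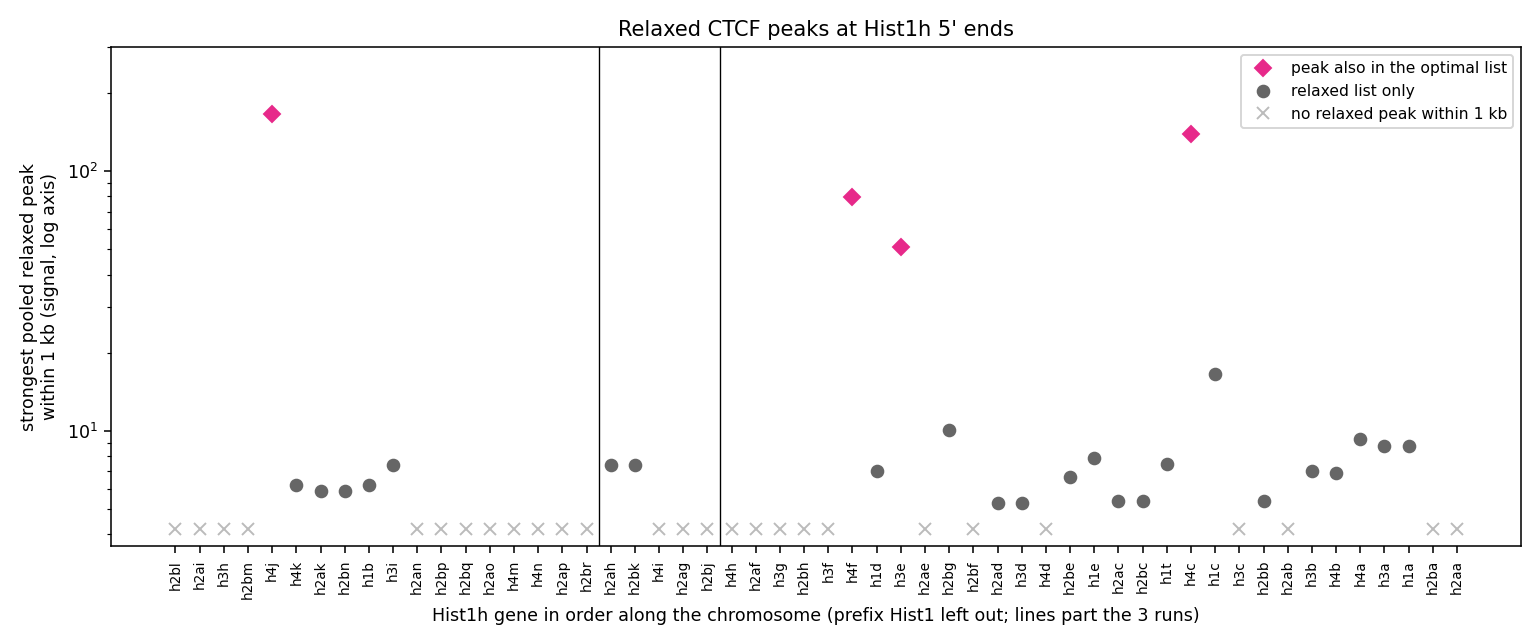
Signal (log axis) of the strongest pooled relaxed peak within 1 kb of each Hist1h 5' end, in order along the chromosome. Diamonds are peaks that are also in the optimal list, and circles are peaks that are not. The circle of Hist1h1c (16.6) is also in the conservative list. Crosses mark genes without a peak, set at an arbitrary height. The 4 diamonds lie between 51.0 and 167, and the circles between 5.30 and 16.6.

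Promoters of 49 of the 54 genes were matched in RefSeq (GRCm38.p6, 250 bases before to 50 after the annotated start). Motifs were searched on both strands, and a promoter was counted once for each motif whether or not matches of different motifs overlapped. CCAAT was in 41 of 49 Hist1h promoters (83.7%), against 37.4% of 32851 RefSeq promoters. It was in every matched H1, H2A, H2B and H3 promoter and in 3 of 11 H4 promoters. TATAAA was in 30 (61.2%), against 13.6%. ATGCAAAT, the octamer known from H2B promoters, was in 10 (20.4%), against 1.74%, and these were 5 H2B and 5 H2A promoters. Promoters of a head-to-head pair can share bases, so these counts are not independent. The CTCF core was in 2 Hist1h promoters (4.08%), against 14.4% of all, and the median GC content was 45% against 52.7%. A match is a description of the letters and not a bound site.

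The 2 promoters with a core are shown because one carries an optimal summit and the other does not. Capitals mark the core and any CCAAT or TATAAA on either strand, and the core lies within the 250 bases before the RefSeq start in both.
Hist1h4f promoter, chr13:23551619-23551918, minus strand: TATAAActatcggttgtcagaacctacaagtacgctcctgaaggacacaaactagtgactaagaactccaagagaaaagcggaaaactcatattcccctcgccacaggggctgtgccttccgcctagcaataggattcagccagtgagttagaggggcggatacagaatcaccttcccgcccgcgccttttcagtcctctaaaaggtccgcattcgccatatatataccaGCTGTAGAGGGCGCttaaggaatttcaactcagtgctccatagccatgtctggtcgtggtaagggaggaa
Hist1h1b promoter, chr13:21780576-21780875, minus strand: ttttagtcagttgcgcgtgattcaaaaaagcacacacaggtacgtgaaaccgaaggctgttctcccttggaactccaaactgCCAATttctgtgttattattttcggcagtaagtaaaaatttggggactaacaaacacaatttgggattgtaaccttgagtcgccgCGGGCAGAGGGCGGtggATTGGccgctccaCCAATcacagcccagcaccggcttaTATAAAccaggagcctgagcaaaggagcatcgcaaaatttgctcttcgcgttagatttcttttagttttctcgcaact

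Both cores match with 2 mismatches. The Hist1h4f core is in the peak of signal 79.4 described above. Near Hist1h1b the strongest relaxed peak was 628 bp downstream of the 5' end, with a signal of 6.19, and the nearest optimal summit was 46.33 kb away.

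Outside the cluster, 3 lists give the setting for these counts. Of the 13 replication-dependent genes with Hist2h, Hist3h and Hist4h names, 3 (23.1%) had an optimal summit within 1 kb and 8 (61.5%) within 10 kb, and all protein-coding genes had shares of 21.2% and 50.3%. These are lists of 12 to 18 genes, and neighbours in them share sites. The 3 with a site within 1 kb were Hist2h2ab (542 bp upstream, signal 34.0), Hist2h4 (163 bp upstream, 63.5) and Hist3h2a (398 bp downstream, 67.4). The strongest within 10 kb was the site shared by Hist2h3b and Hist2h2bb, with a signal of 133. Of 12 replacement histone genes, expressed outside S phase as well or in special cells, 4 (33.3%) had a summit within 1 kb and 9 (75%) within 10 kb, with the strongest near H2afz (137), which encodes H2A.Z, and H1f0 (114), which encodes H1.0. Of 18 genes for histone gene transcription and histone mRNA processing, 5 (27.8%) had a summit within 1 kb and 11 (61.1%) within 10 kb. Among these, Lsm11, which encodes a subunit of the U7 snRNP that cuts histone pre-mRNA, had a summit 92 bp upstream with a signal of 349 and replicates of 190 and 161 (176 ± 20.3). Zfp473, whose product takes part in the same cut, had a site 5.71 kb downstream with a signal of 132. At Npat, the organiser of the histone locus body, a summit 121 bp upstream had a signal of 25.4, with replicates of 16.3 and 10.9.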

How the data were processed

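CTCF ChIP-seq peak lists of 2 libraries of postnatal day 0 heart were used. The authors deposited 5 narrowPeak lists in mm10 coordinates, per the labels and the accompanying text files: a relaxed list for each replicate and for both pooled, each called against a control alignment, and 2 IDR lists. Signal is the authors' deposited value of each peak, relative to control, on a scale that is not given. The authors also deposited each summit's offset in bp. The name of the aligner and of the peak caller is not given in the sources used here, nor is the handling of reads with several positions.

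From these, summits were placed against GENCODE M21 gene 5' ends, and a replicate's signal is that of its relaxed peak with the nearest summit within 100 bp. Shares carry exact binomial 95% intervals (SciPy 1.17.1) that cover counting error only. Other work used Python 3.11.15, NumPy 2.4.6 and pandas 2.3.3. Distances, counts and the core search were tested on simulated data. Members, lists, alternatives and the rule for named genes (genes at sites, run ends, H1 genes, the strongest relaxed peaks and the strongest of each list) were chosen with earlier results of these data known. Other genes and sites named were chosen after their values were seen.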

Additional observations from a re-analysis of the deposited data

How the results depend on the processing

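The count of 4 Hist1h genes with an optimal summit within 1 kb became 1 at 0.5 kb, or 1.85% against 16.2% of all protein-coding genes. At 2 kb it was 10, or 18.5% against 27%, and it was 4 to 5 from either replicate alone. The 25 genes within 10 kb became 13 at 5 kb and 44 at 20 kb, where 38% and 66.1% of all protein-coding genes had a summit. Counting genes within 10 kb of each other once gave 7 of 13, against 48.7% of all protein-coding genes. Either replicate alone gave 27 to 28. The Hist1h share was below that of all genes in the 10 kb window (46.3%) and at 5 kb (24.1%), and above it at 20 kb (81.5%), counted once (53.8%) and in the conservative list (50% against 49.5%); with the 5' end of any transcript it was 46.3% against 59.2%. Leaving out the 6 genes in repeated sequence, chosen after seeing the data, can change only the shares, to 8.33% and 52.1%. The relaxed count of 27 became 14 at 0.5 kb, or 25.9% of Hist1h genes against 47% of all protein-coding genes. With the 100000 strongest peaks it was 10, or 18.5% against 41.1%, and it was 28 from each replicate's list. The density ratio to chromosome 13 of 1.04 was 0.976 without flanks, 1.73 over each run plus flanks and 0.936 against all chromosomes, with 0.989 to 1.04 from either replicate alone, so its side of 1 depends on these choices. The log2 ratio of the region's median signal to that of the optimal list, 0.38, was 0.54 in the conservative list, 0.73 over each run plus flanks and 0.35 to 0.53 from either replicate alone. Sites with a core numbered 13 at 1 mismatch (35.1%, against 42.4% of all peaks), against 26 at 2 mismatches, and 21 to 25 from either replicate alone, where region summits numbered 35 to 37. No paired analysis was possible because there is 1 group. Unknown read depth, 1 tissue sample and unknown handling of repeated sequence limit all of these values.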
